A study of Mus musculus with 3 samples.

Results

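The 7 genes described here encode the actin core of the intestinal microvillus and the proteins that tie this core to the membrane. They were taken by symbol from the 31053 genes counted in single cells of the mouse small intestine, and all 7 symbols were found once. Each of the 3 libraries (duodenum, jejunum and ileum) held epithelial and intraepithelial immune cells of wild-type male C57BL/6N mice, 12 weeks old, without treatment. Cells of 3 mice were pooled for each library, and live cells were sorted by the absence of propidium iodide. Every segment thus had 1 library and no replicate, and differences between animals could not be seen.

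Microvilli are finger-like protrusions that enlarge the apical surface of absorptive cells. Each is held up by a bundle of parallel actin filaments, cross-linked by plastin 1 (Pls1), espin (Espn) and villin. Eps8 caps and bundles filaments and sits at the microvillus tip, where Baiap2l1 (also called IRTKS), a protein that binds curved membrane and actin, acts with it during microvillus growth. Ezrin (Ezr) and the class I myosin Myo1a link the sides of the bundle to the plasma membrane. Myo6 encodes a myosin that walks toward the minus end of actin, away from the microvillus tip. Tuft cells are chemosensory cells named for a brush of long, stiff microvilli with deep actin rootlets.

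In GRCm38, Espn (ENSMUSG00000028943) lies on chromosome 4 from 152120331 to 152152371 on the minus strand, and Pls1 (ENSMUSG00000049493) lies on chromosome 9 from 95752642 to 95845311 on the minus strand. Eps8 (ENSMUSG00000015766) covers 137477245 to 137654876 of chromosome 6, minus strand, and Baiap2l1 (ENSMUSG00000038859) covers 144264526 to 144358112 of chromosome 5, minus strand. Ezr (ENSMUSG00000052397) covers 6738041 to 6782784 of chromosome 17, minus strand. Both myosins lie on the plus strand, Myo1a (ENSMUSG00000025401) at 127705170 to 127720940 of chromosome 10 and Myo6 (ENSMUSG00000033577) at 80165031 to 80311729 of chromosome 9. The 7 genes thus lie on 6 chromosomes.

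The RefSeq promoter sequences of GRCm38.p6 held 8 entries for 6 of the 7 genes, 3 of them alternative starts of Espn, and none for Eps8. In the 250 bases before the start, the number of CG pairs ranged from 1 (Myo1a and 1 start of Espn) to 32 (Ezr), beside a median of 6 over 32851 promoters. Both ends of this range are shown, each only up to the start of the annotated gene, written 5′ to 3′ on the strand of the gene, with CG pairs in capitals. The levels of both genes in immune cells are given further on.

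Myo1a, chr10:127705006-127705169, plus strand: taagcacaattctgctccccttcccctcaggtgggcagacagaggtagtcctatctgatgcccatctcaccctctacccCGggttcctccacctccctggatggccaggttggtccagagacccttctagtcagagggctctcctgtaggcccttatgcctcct
Ezr, chr17:6782785-6783030, minus strand: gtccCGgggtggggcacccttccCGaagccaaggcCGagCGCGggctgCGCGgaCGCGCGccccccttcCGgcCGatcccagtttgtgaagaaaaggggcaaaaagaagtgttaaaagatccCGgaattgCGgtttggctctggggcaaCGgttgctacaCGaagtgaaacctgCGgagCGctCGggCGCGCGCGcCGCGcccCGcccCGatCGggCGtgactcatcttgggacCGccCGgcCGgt

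The 250 bases, read as a description only, were searched on both strands for CAAAGTNCA, a core recognised by HNF4 factors, and for AGATAA, a core recognised by GATA factors (N is any base, and the 2 stretches do not overlap). Neither stretch of letters was found in any of the 8 member promoters. Among all 32851 promoters of the same length, 1.19% held the first and 9.99% the second.

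Of 27235 barcodes, 16686 passed the study's cell filters, with 4255, 4360 and 8071 cells in the duodenum, jejunum and ileum. Kept cells held a median of 12424, 11737 and 5536 UMIs (unique molecules) and 27.1%, 27.2% and 11.1% mitochondrial UMIs in this order. Pairs of libraries shared 20 to 28 barcodes. Cells were clustered without the 7 genes, so their levels did not define the classes. The cells fell into 10686 enterocytes, 1042 early enterocytes, 746 goblet, 299 tuft, 171 enteroendocrine (EEC), 225 stem or proliferating (ISC/proliferating) and 24 Paneth cells, with 1233 T cells among the immune cells. Another 1466 cells in 4 clusters stayed unnamed and entered no class comparison. The class names were checked against defining markers. Dclk1 had 21.6 UMIs per 10000 UMIs in tuft cells and 0.0113 elsewhere, Muc2 245 in goblet cells and 0.646 elsewhere, and Chga 37.4 in EECs and 0.0517 elsewhere.

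Levels are a gene's UMIs per 10000 UMIs, taken over the summed cells of a class. One UMI stands for one captured transcript end, so levels were compared between cells for the same gene and not ranked between genes. The first question was in which cell classes the core genes were expressed. Over all 7 genes, the summed level was 42.4 in enterocytes, 29.4 in tuft cells, 22.6 in early enterocytes, 17.1 in goblet cells, 12.8 in EECs, 6.77 in ISC/proliferating and 3.75 in Paneth cells. T cells, which have no brush border, held 9.41. RNA released from broken enterocytes can also reach droplets with other cells. The 13 enterocyte markers, summed, stood in T cells at 14.0% of their enterocyte level. By library this share was 26.8% (duodenum), 8.49% (jejunum) and 12.9% (ileum). Relative to enterocytes of the same library, T cells held 55.6%, 35.9% and 25.8% of the Ezr level and 68.3%, 57.4% and 31.2% of the Myo6 level. For Espn, Pls1, Myo1a and Eps8 the values lay between 13.3% and 38.3%, and for Baiap2l1 between 10.6% and 63.1%. The part of free RNA in these values was not tested.

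**Figure D1:**
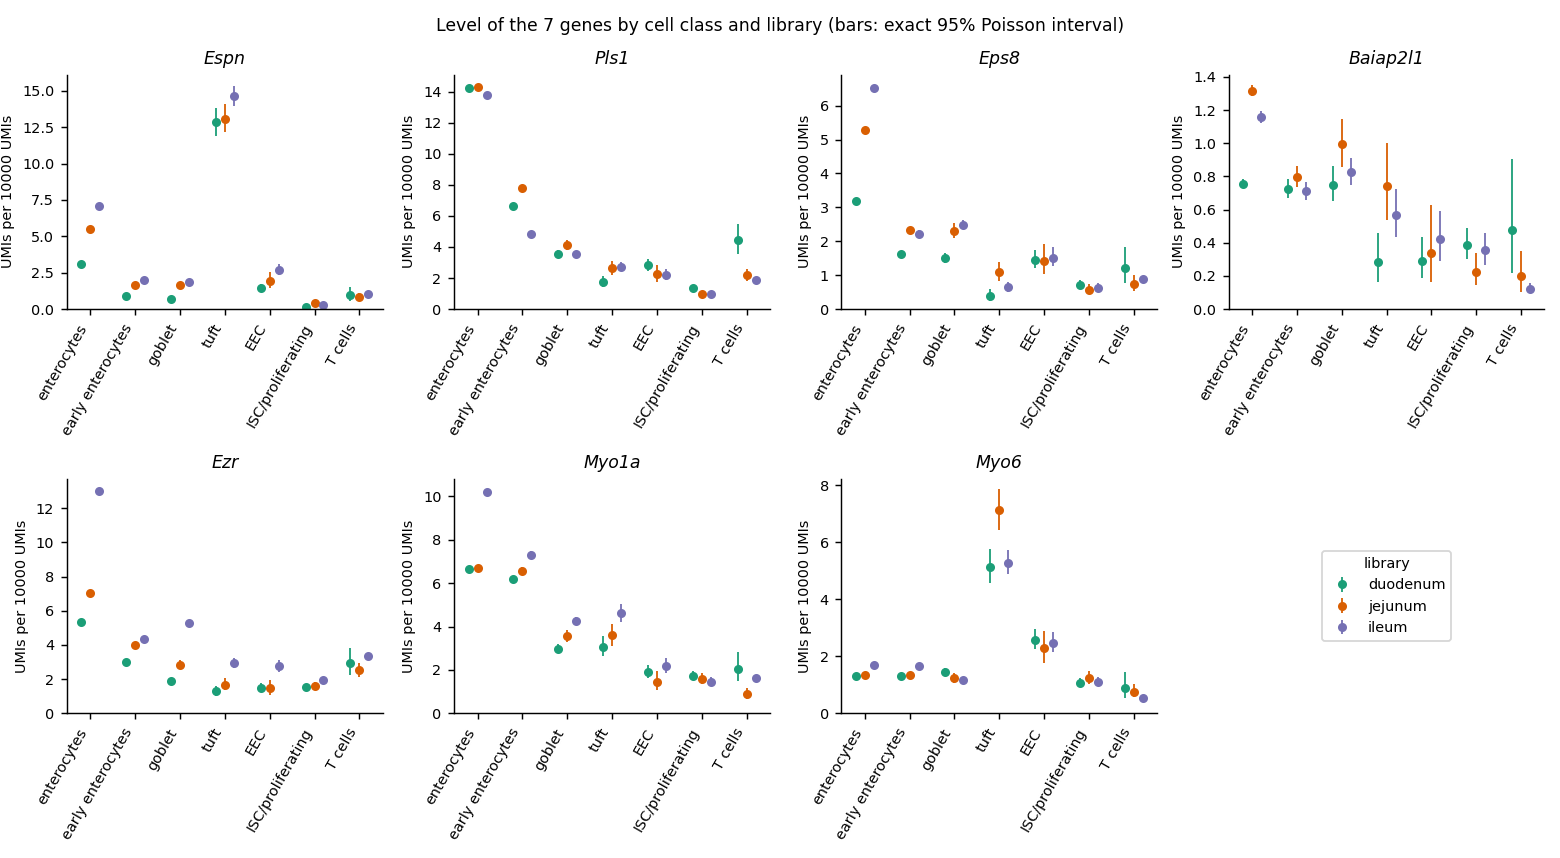
Level of each gene (y axis, UMIs per 10000 UMIs, from 0) in 7 cell classes (x axis) for the duodenum, jejunum and ileum libraries, with exact 95% Poisson intervals for counting error. Pls1 stood near 14 in enterocytes of every library, whereas the tuft cell points of Espn (12.8 to 14.6) and Myo6 (5.15 to 7.13) lay above those of all other classes shown.

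Of the bundling proteins, Pls1 reached 14.3, 14.3 and 13.8 UMIs per 10000 UMIs in enterocytes of the duodenum, jejunum and ileum. Early enterocytes, which sit lower on the villus, held 6.62, 7.80 and 4.82, and ISC/proliferating cells of the crypt held 1.38, 0.941 and 0.971. The groups did not overlap, and the share of all genes for which this holds was not computed. Espn stood at 3.08, 5.47 and 7.05 in enterocytes, at 0.871, 1.63 and 1.99 in early enterocytes and at 0.149, 0.382 and 0.249 in ISC/proliferating cells. The last of these rest on 27, 39 and 40 UMIs.

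Classes were compared with edgeR's quasi-likelihood test on UMIs summed per library and class, blocked by library, and p-values were adjusted over 13127 genes (Benjamini-Hochberg). Against ISC/proliferating cells, all 7 genes were higher in enterocytes, beside 32.5% of all genes tested. The log2 fold changes were 5.16 ± 0.28 (SE) for Espn, 4.51 ± 0.31 for Pls1, 3.72 ± 0.31 for Eps8, 3.09 ± 0.25 for Myo1a, 3.04 ± 0.25 for Ezr, 2.48 ± 0.32 for Baiap2l1 and 1.17 ± 0.19 for Myo6, with adjusted p from 1.38e-11 to 1.60e-05 in edgeR. Their median was 3.09, against 0.04 over all genes. All 7 genes passed the filter on low counts in every fit. Scaling by library size alone left Myo6 short of the threshold (log2 fold change 0.35, edgeR adjusted p = 0.123).

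Against early enterocytes, 5 of the 7 genes were higher in enterocytes, beside 22.7% of all genes. Espn differed by 2.14 ± 0.24 on the log2 scale (edgeR adjusted p = 4.68e-07), Eps8 by 1.60 ± 0.28, Pls1 by 1.49 ± 0.27, Ezr by 1.41 ± 0.23 and Baiap2l1 by 0.86 ± 0.29 (edgeR adjusted p = 0.0209). Myo1a (0.55 ± 0.23, edgeR adjusted p = 0.0599) and Myo6 (0.35 ± 0.18, edgeR adjusted p = 0.134) did not pass. Early enterocytes held Myo1a at 93.0%, 97.8% and 71.6% of its enterocyte level in the duodenum, jejunum and ileum, and Myo6 at 100.3%, 100.9% and 97.2%. Espn stood at 28.3%, 29.8% and 28.2%. The difference of Baiap2l1 was lost without the jejunum (edgeR adjusted p = 0.225), without the ileum (0.128), without the library block (0.054) and with library size alone (0.150). That of Myo1a passed without the duodenum (edgeR adjusted p = 0.047) and in DESeq2 (DESeq2 adjusted p = 0.049). It also passed with the 10% of cells with most enterocyte RNA left out of the other classes (edgeR adjusted p = 0.045).

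Goblet cells secrete mucus and bear shorter microvilli. The enterocytes held more Pls1 (log2 fold change 1.98 ± 0.27), Espn (1.97 ± 0.24), Ezr (1.41 ± 0.23), Eps8 (1.30 ± 0.27) and Myo1a (1.17 ± 0.23), so that 5 of 7 genes passed, beside 22.8% of all genes. Baiap2l1 (0.38 ± 0.29, edgeR adjusted p = 0.320) and Myo6 (0.23 ± 0.19, edgeR adjusted p = 0.357) did not pass. In goblet cells Baiap2l1 stood at 0.751, 0.994 and 0.828 UMIs per 10000 UMIs, beside 0.755, 1.32 and 1.16 in enterocytes. Pooled over libraries, the 13 enterocyte markers together reached 9.66% of their enterocyte level in goblet cells, and in the duodenum 12.2%. By library, the core genes reached 22.8% (Espn in the duodenum) to 109.3% (Myo6 in the duodenum). How much of these levels was free RNA was not tested.

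EECs release hormones, and many reach the lumen with a narrow apical tip. Against EECs, 6 of 7 genes were higher in enterocytes, beside 27.9% of all genes, with log2 fold changes from 2.19 ± 0.24 (Espn) to 3.42 ± 0.29 (Pls1). Myo6 was the exception (0.11 ± 0.19, edgeR adjusted p = 0.649). Its level in EECs was 2.58, 2.28 and 2.48 UMIs per 10000 UMIs, above the 1.32, 1.33 and 1.71 of enterocytes in every library. The sign of this difference depended on the scaling: with library size alone Myo6 was lower in enterocytes by 0.76 (edgeR adjusted p = 0.00243), and the median of all genes then stood at -0.86 instead of 0.01. Within the EECs, assigned to a hormone class where 155 of 171 cells allowed it, Espn was 3.80 (95% Poisson interval 3.28 to 4.37) in 60 N cells and 0.470 (0.263 to 0.774) in 21 K cells. Myo6 was 3.90 (3.29 to 4.58) in 45 EC cells and 1.86 (1.51 to 2.27) in N cells. These intervals cover counting error only, and no test was made between so few cells.

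**Figure D2:**
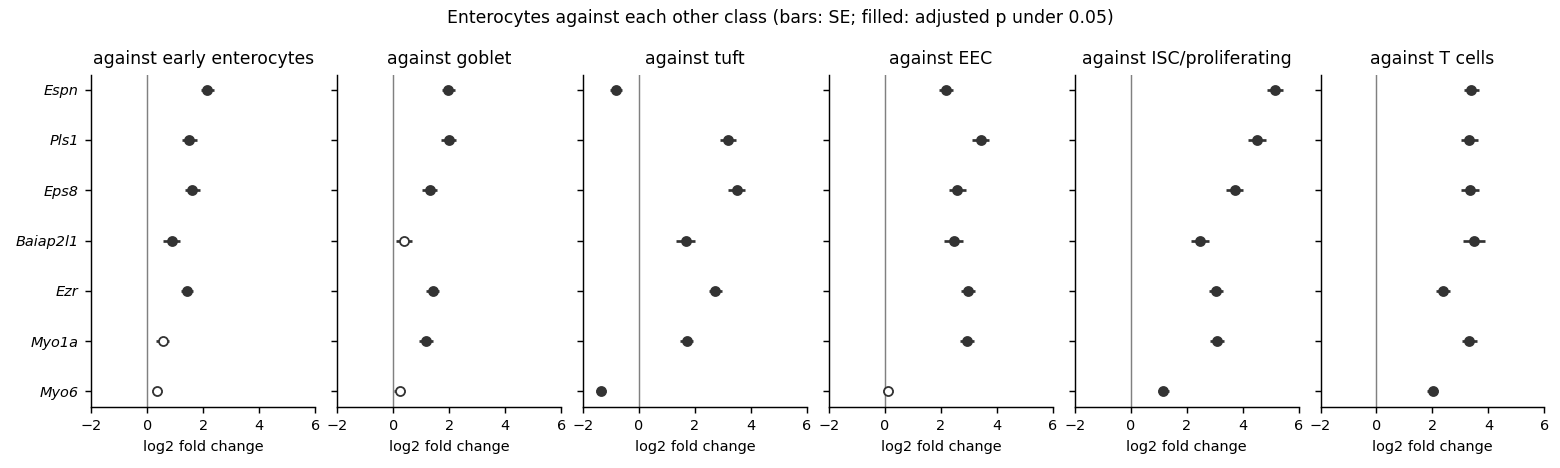
Log2 fold change of each gene (x axis) in enterocytes against each of 6 classes, with bars for the SE and filled points for an adjusted p under 0.05 in edgeR. Only Espn and Myo6 against tuft cells lie left of 0.

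Tuft cells showed another combination. Espn stood at 12.8, 13.1 and 14.6 UMIs per 10000 UMIs in tuft cells of the duodenum, jejunum and ileum, above its level in every other class of every library. Myo6 stood at 5.15, 7.13 and 5.29, likewise above every other class. Eps8, in contrast, was at 0.387, 1.08 and 0.638 in tuft cells, below the 3.18 to 6.51 of enterocytes. In the test, both Espn (log2 fold change -0.82 ± 0.23, edgeR adjusted p = 0.00519) and Myo6 (-1.36 ± 0.19, 3.79e-06) were lower in enterocytes than in tuft cells, 2 of 7 genes beside 22.8% of all genes. The other 5 genes were higher in enterocytes, beside 25.4% of all genes, by 3.49 ± 0.31 for Eps8, 3.19 ± 0.29 for Pls1, 2.73 ± 0.25 for Ezr, 1.70 ± 0.24 for Myo1a and 1.66 ± 0.32 for Baiap2l1. The call for Espn was lost without the duodenum (-0.51, edgeR adjusted p = 0.074) and without the library block (-0.72, 0.135).

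In the comparison of tuft with goblet cells, Espn was higher in tuft cells by 2.79 ± 0.25 on the log2 scale (edgeR adjusted p = 2.05e-08) and Myo6 by 1.59 ± 0.19 (1.46e-06), beside 16.3% of all genes. Eps8 was lower in tuft cells by 2.19 ± 0.30, Ezr by 1.32 ± 0.24, Baiap2l1 by 1.28 ± 0.33 and Pls1 by 1.21 ± 0.27, beside 16.0% of all genes. With library size alone, the lower calls of Pls1 and Baiap2l1 were lost (edgeR adjusted p = 0.052 and 0.083). Myo1a was lower by 0.53 ± 0.23 in the fit (edgeR adjusted p = 0.0932) but higher by level in 3 of 3 libraries, and its sign turned with the scaling. Tuft cells held 17.0% of the enterocyte level of the 13 enterocyte markers. By library this share was 20.2%, 20.5% and 13.2%, beside 12.3%, 18.3% and 19.7% for Pls1 and 12.2%, 20.4% and 9.80% for Eps8. The part of free RNA in these values was not tested.

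Against T cells all 7 genes were higher in enterocytes, by 2.00 ± 0.21 (Myo6) to 3.49 ± 0.39 (Baiap2l1) on the log2 scale, beside 33.0% of all genes. With the 10% of cells with most enterocyte RNA left out of each class but enterocytes, the median of the 7 genes went from 3.32 to 5.33. That of all genes was then 0.10. Whether doublets or free RNA gave rise to this was not tested. Ezr stood at 2.97, 2.53 and 3.34 UMIs per 10000 UMIs in T cells and at 4.58 in B cells (IgA B cells, a class of their own, held 1.12). Myo1a, by comparison, stood at 1.58 in T cells and 1.54 in B cells, which was 20.5% and 20.1% of its enterocyte level. Ezrin also links actin to the membrane in lymphocytes. The median log2 fold change of the 7 genes was 1.41 against early enterocytes, 1.30 against goblet cells, 1.70 against tuft cells, 2.59 against EECs and 3.32 against T cells, while that of all genes lay between 0.01 and 0.13. The comparisons of enterocytes share the enterocyte sums.

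To describe the mix of core genes without any scaling between cells, each gene was given as a share of the UMIs of the 7 genes in a library. Espn made up 47.4% ± 4.1 (SD, n = 3) of these UMIs in tuft cells and 11.8% ± 2.5 in enterocytes, and Myo6 20.5% ± 3.5 and 3.4% ± 0.4. Pls1 made up 33.9% ± 7.7 in enterocytes and 8.2% ± 0.9 in tuft cells. Early enterocytes differed from enterocytes in a larger share of Myo1a, 29.7% ± 2.5 against 18.2% ± 1.7, and a smaller share of Espn, 6.5% ± 2.2. The ranges of the 3 libraries did not overlap in any of these comparisons, although the highest early value of Espn (8.6%) was close to the lowest enterocyte value (8.9%). Between early enterocytes and enterocytes the ranges of Pls1, Ezr, Eps8 and Baiap2l1 did overlap, and between tuft cells and enterocytes that of Baiap2l1. Genes outside the 7 were not compared in this way. A larger share is not a higher level: by level, Myo1a was lower in early enterocytes than in enterocytes of every library. The SD is taken over 3 segments with 1 library each, and no test was made on these shares.

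**Figure D3:**
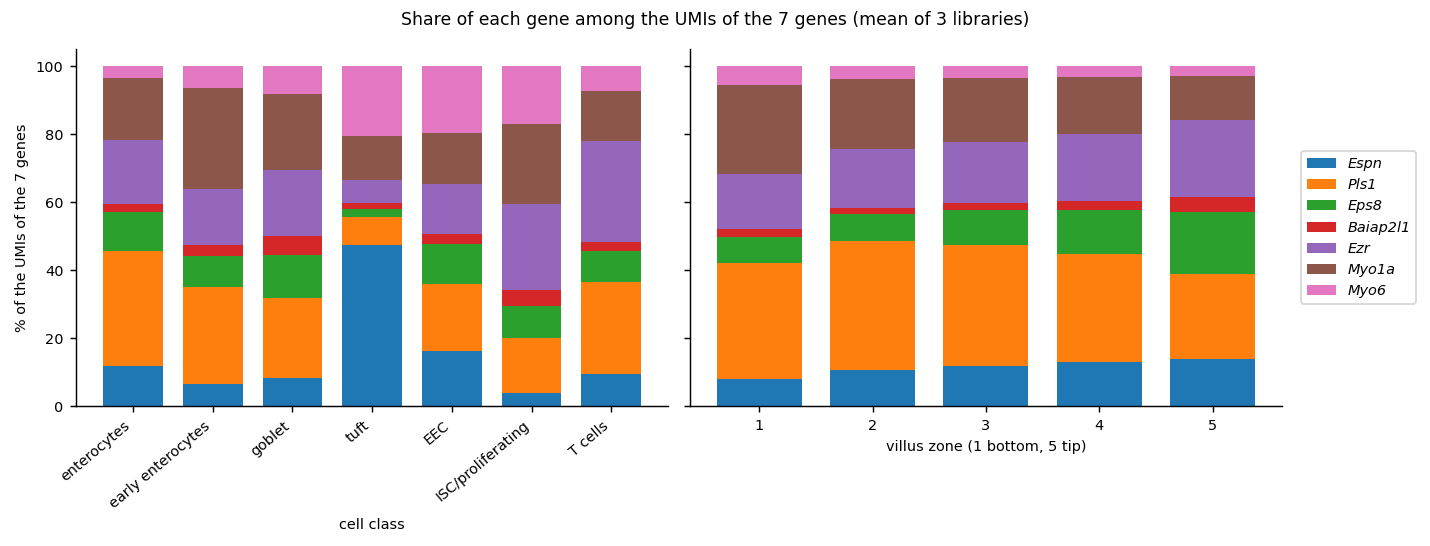
Share of each gene (y axis, percent of the UMIs of the 7 genes, mean of 3 libraries) by cell class on the left and by villus zone on the right. Espn takes 47.4% in tuft cells, and from zone 1 to zone 5 the part of Myo1a shrinks from 26.3% to 12.7% while that of Eps8 widens from 7.7% to 18.2%.

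At equal depth, with each cell thinned to 800 UMIs, a mean of 2.43 of the 7 genes was found per enterocyte, 1.73 per tuft cell, 1.49 per early enterocyte, 1.32 per goblet cell, 0.883 per EEC, 0.560 per ISC/proliferating cell and 0.441 per T cell. Without thinning, enterocytes showed 6.03 of the 7. A UMI of Espn was found in 68.2% of thinned tuft cells, 33.8% of enterocytes and 3.33% of T cells, and a UMI of Myo6 in 36.8%, 12.1% and 4.14%. Eps8 was found in 31.4% of enterocytes, 4.35% of tuft cells and 3.89% of T cells.

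The second question was how the core genes varied along the villus. Within each library, enterocytes and early enterocytes were ordered by a score of 9 genes of the villus tip (such as Ada, Nt5e and Apoa4) minus 9 genes of the villus bottom (such as Reg3b and Lypd8) and divided into 5 zones of equal size, with zone 1 at the bottom. None of the 7 genes was part of the score. Of genes kept out of the score, pooled over libraries, the transporters Slc5a1 and Slc2a2 stood at 12.0 and 2.80 UMIs per 10000 UMIs in zone 1. They were highest in zone 2 (14.8 and 3.64) and stood at 3.87 and 0.322 in zone 5. Slc7a8 fell from 1.07 in zone 1 to 0.0776 in zone 5, and Slc7a9 changed little (2.23 to 1.94). Apob rose from 14.6 to 46.5, Apoc3 from 22.5 to 58.5 and Slc15a1 from 1.52 to 3.37. Zones are ranges of a score without sharp borders: 26.1% to 28.5% of cells lay within 0.1 of a border. Early enterocytes made up 43.9% of zone 1 and 0.512% or less of every other zone, and the median depth fell from 16642 UMIs in zone 1 to 8634 in zone 5. The bottom genes Reg3b, Reg3g, Reg1, Lypd8, Nlrp6, Gsdmc4, Prss32 and Dmbt1 were also markers that named early enterocytes. Their place in zone 1 thus follows from the score. The comparison of zones 5 and 1 partly repeats that of enterocytes with early enterocytes.

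Of the tip proteins, Eps8 stood at 1.73, 2.29, 2.89, 3.75 and 5.44 UMIs per 10000 UMIs in zones 1 to 5 of the duodenal library, at 2.44, 3.70, 5.20, 6.21 and 8.41 in the jejunum and at 2.47, 4.49, 6.02, 7.64 and 9.70 in the ileum. Every step upward was an increase in every library. Baiap2l1 stood at 0.641, 0.555, 0.620, 0.760 and 1.46 in zones 1 to 5 of the duodenum, at 0.751, 0.804, 1.10, 1.60 and 2.37 in the jejunum and at 0.681, 0.698, 0.970, 1.39 and 1.83 in the ileum. Its ratio of zone 3 to zone 1 was 0.966 (duodenum), 1.46 (jejunum) and 1.43 (ileum), and that of zone 5 to zone 3 was 2.36, 2.16 and 1.89.

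Ezr, the membrane linker, also rose with every step in every library, from 3.65 to 6.38 (duodenum), 4.60 to 8.59 (jejunum) and 5.59 to 15.1 (ileum). Espn went from 1.41 to 4.66 in the duodenum and from 2.47 to 6.45 in the jejunum. In the ileum it reached its highest level, 8.16, in zone 3 and stood at 6.45 in zone 5.

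**Figure D4:**
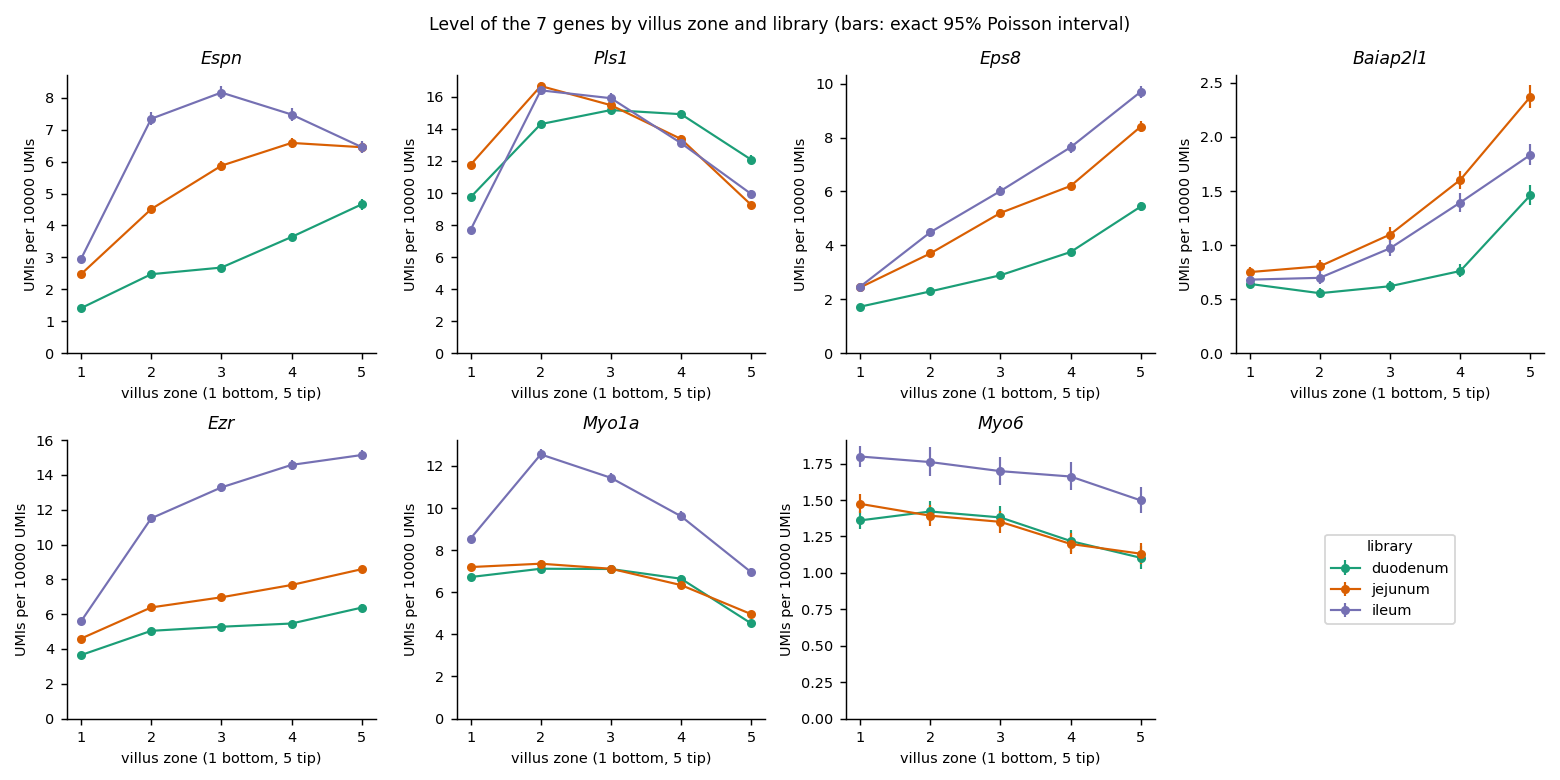
Level of each gene (y axis, UMIs per 10000 UMIs, from 0) in 5 villus zones (x axis, 1 bottom to 5 tip) for the 3 libraries, with exact 95% Poisson intervals. Eps8 and Ezr climb at each step, Pls1 peaks in zones 2 and 3, and Myo1a and Myo6 are lower in zone 5 than in zone 1 in every library.

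By level, Pls1 had a hump rather than a slope. In zones 1, 3 and 5 it was 9.74, 15.2 and 12.1 (duodenum), 11.8, 15.5 and 9.26 (jejunum) and 7.70, 15.9 and 9.94 (ileum). Among enterocytes alone, without early enterocytes, its rise from zone 1 to zone 3 did not pass (log2 fold change 0.14, edgeR adjusted p = 0.365). Nor did its fall from zone 3 to zone 5 in the main fit (-0.17, edgeR adjusted p = 0.376). Myo1a was highest in zone 2 in every library, at 7.12, 7.36 and 12.5, and lowest in zone 5, at 4.52, 4.96 and 6.95. Myo6 fell little, from 1.36, 1.47 and 1.80 in zone 1 to 1.10, 1.13 and 1.5 in zone 5.

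In the edgeR test on 15 sums of zone and library, 6 of 7 genes were higher in zone 5 than in zone 1, beside 33.9% of the 11144 genes tested. The log2 fold changes were 2.38 ± 0.15 for Eps8 (edgeR adjusted p = 5.94e-08), 2.02 ± 0.18 for Espn, 2.00 ± 0.19 for Baiap2l1, 1.61 ± 0.18 for Ezr, 0.69 ± 0.15 for Pls1 and 0.28 ± 0.11 for Myo6 (edgeR adjusted p = 0.0348), while Myo1a did not pass (0.11 ± 0.13, 0.465). The call of Myo6 was lost without the gene filter (edgeR adjusted p = 0.225), without the library block (0.263), without the jejunum (0.240) or the ileum (0.164), with at most 20% mitochondrial UMIs (0.261), with cells thinned to 2000 UMIs (0.058) and with the share of tip list UMIs as the score (0.996), each of which left 5 of 7. In these alternatives 18.4% to 33.9% of all genes were higher. In the main fit the median of the 7 genes was 1.61 and that of all genes -0.09. For Eps8, Espn, Baiap2l1 and Ezr, levels and fitted changes had the same direction in 3 of 3 libraries. For both myosins the fitted change was positive although the level per 10000 UMIs was lower in zone 5 in 3 of 3 libraries. With library size alone in place of TMM, the median of all genes moved from -0.09 to -0.68, and Myo1a (-0.48, edgeR adjusted p = 0.00344) and Myo6 (-0.32, 0.00766) were lower in zone 5, while Pls1 did not pass (0.10, 0.567). Against the median of all genes, neither myosin was lower under any of these scalings. Among enterocytes alone, without early enterocytes, 4 of 7 genes passed, beside 30.4% of all genes. Pls1 then stood at -0.02 (edgeR adjusted p = 0.879) and Myo6 at 0.10 (0.403).

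**Figure D5:**
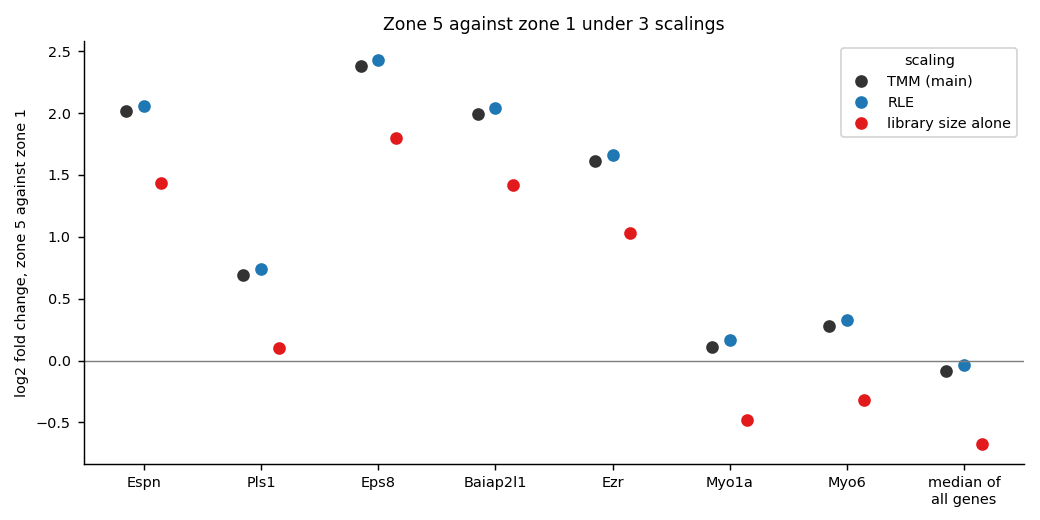
Log2 fold change between zone 5 and zone 1 (y axis) of each gene and of the median of all genes tested (x axis) under TMM, RLE and library size scaling. Eps8, Espn, Baiap2l1 and Ezr stay above 0 under all 3, while Myo1a and Myo6 lie above 0 under TMM and RLE and below it under library size alone.

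The lower and the upper villus were also compared. Between zones 1 and 3, 5 of 7 genes were higher in zone 3, beside 24.4% of all genes: Espn (1.40 ± 0.18), Eps8 (1.21 ± 0.15), Ezr (0.95 ± 0.18), Pls1 (0.86 ± 0.15) and Baiap2l1 (0.50 ± 0.18). Between zones 3 and 5, 4 of 7 were higher in zone 5, beside 19.9% of all genes: Baiap2l1 (1.5 ± 0.19), Eps8 (1.17 ± 0.14), Ezr (0.67 ± 0.17) and Espn (0.61 ± 0.17). In the upper part Pls1 (-0.17 ± 0.15, edgeR adjusted p = 0.376), Myo1a (-0.22 ± 0.13, 0.214) and Myo6 (0.16 ± 0.11, 0.253) did not pass. In the lower part Myo1a (0.33 ± 0.13, edgeR adjusted p = 0.0581) and Myo6 (0.12 ± 0.11, 0.393) did not. Myo1a did pass there in DESeq2 (0.33, DESeq2 adjusted p = 0.035) and with cells thinned to 2000 UMIs (0.32, edgeR adjusted p = 0.0495). By level, Pls1, Myo1a and Myo6 were higher in zone 5 than in zone 3 in 0 of 3 libraries. With library size alone these 3 genes were lower in zone 5, beside 40.4% of all genes. Their log2 fold changes were -0.58, -0.63 and -0.25 (edgeR adjusted p = 0.0109, 0.00184 and 0.0380). Without the library block 1 gene passed in the lower part, beside 5.43% of all genes, and 0 in the upper part, beside 0.879%. Espn in the upper part did not pass without the duodenum (0.36, edgeR adjusted p = 0.162) or without the jejunum (0.64, 0.128). Nor did it with at most 20% mitochondrial UMIs (0.57, edgeR adjusted p = 0.095) or with library size alone (0.21, 0.350). Ezr in the upper part did not pass without the jejunum (0.64, edgeR adjusted p = 0.142) or with library size alone (0.25, 0.168). Baiap2l1 in the lower part did not pass without the jejunum (0.34, edgeR adjusted p = 0.364) or without the ileum (0.38, 0.261), nor under 6 other alternatives.

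As shares of the UMIs of the 7 genes, which no scaling changes, Myo1a went from 26.3% ± 2.7 (SD, n = 3) in zone 1 to 12.7% ± 0.7 in zone 5 and Myo6 from 5.4% ± 0.6 to 2.9% ± 0.2. Eps8 went from 7.7% ± 0.8 to 18.2% ± 2.6. The 3 libraries, each of another segment, did not overlap between the 2 zones for any of these genes, which was not tested. For Pls1 and Ezr they did overlap. Genes outside the 7 were not compared in this way. The 7 genes did not change in proportion to each other along the villus.

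The third comparison was between segments, each with 1 library. Ezr in enterocytes stood at 5.34 (duodenum), 7.06 (jejunum) and 13.0 (ileum) UMIs per 10000 UMIs. Espn stood at 3.08, 5.47 and 7.05 and Eps8 at 3.18, 5.29 and 6.51 in this order. The ileum to duodenum ratio was 2.43 for Ezr (95% interval 2.39 to 2.47, counting error only), 2.29 for Espn, 2.05 for Eps8, 1.54 for Myo1a, 1.53 for Baiap2l1, 1.30 for Myo6 and 0.968 for Pls1. So 5 of 7 genes were at least 1.5 times higher in the ileum, beside 22.2% of all genes. Between jejunum and duodenum 3 of 7 reached that ratio (Espn 1.78, Baiap2l1 1.74 and Eps8 1.66), beside 10.6% of all genes. Between ileum and jejunum 2 did (Ezr 1.84 and Myo1a 1.52), beside 23.1%.

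The ratios of Pls1 between segments lay between 0.964 and 1.004, whereas of the adjacent segments Ezr differed more between jejunum and ileum and Espn more between duodenum and jejunum. Mitochondrial UMIs made up a median of 29.0%, 29.0% and 12.2% of enterocyte UMIs in the 3 segments. With mitochondrial genes left out, the ileum to duodenum ratio was 2.05 for Ezr, 1.93 for Espn, 1.72 for Eps8, 1.30 for Myo1a, 1.29 for Baiap2l1 and 0.816 for Pls1. Segment and library cannot be told apart in any of these values. Goblet cells had the same order for Ezr, at 1.91, 2.84 and 5.26, and for Espn, at 0.702, 1.65 and 1.88. Espn of tuft cells was 12.8, 13.1 and 14.6, a narrower relative span than in enterocytes, which was not tested.

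The nearest relatives of the core genes were compared in the same fits (17 listed, 15 tested between classes). Among the plastins, Lcp1, the leukocyte plastin, stood at 3.81 in T cells and 0.0156 in enterocytes. Among the ezrin relatives, Msn (moesin) stood at 1.83 and Rdx (radixin) at 1.33 in T cells and at 0.00561 and 0.00332 in enterocytes. Tuft cells held Rdx at 0.545, 0.318 and 0.567 in the 3 libraries, higher than in enterocytes by 6.50 on the log2 scale (edgeR adjusted p = 9.38e-10), next to their lower Ezr. Of the Eps8 relatives, Eps8l3 had no steady direction: its level was 4.78 in tuft cells and 4.23 in enterocytes, while in the TMM fit it was higher in enterocytes (0.52, edgeR adjusted p = 0.048). Of the 15, 4 were higher and 3 lower in enterocytes than in tuft cells, beside 25.4% and 22.8% of all genes, and 6 were higher and 6 lower than in T cells, beside 33.0% and 30.6%.

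Along the villus 6 of 12 relatives tested were higher and 1 lower in zone 5 than in zone 1, beside 33.9% and 37.0% of all genes. Eps8l3 rose from 1.67 to 8.26 UMIs per 10000 UMIs (log2 fold change 2.73), Eps8l2 from 1.64 to 4.21 (1.93) and Myo1e, a long-tailed class I myosin, from 0.319 to 1.51 (2.79). Baiap2l2 fell from 1.22 to 0.250, by 1.63 on the log2 scale, opposite to its relative Baiap2l1.

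A list of 37 other brush border genes gave the setting for the core genes. In enterocytes 29 were higher and 4 lower than in ISC/proliferating cells, 18 higher and 1 lower than in early enterocytes, 22 higher and 5 lower than in goblet cells, 29 higher and 3 lower than in EECs and 27 higher and 3 lower than in T cells. Against tuft cells 22 were higher and 4 lower. The median log2 fold changes were 1.73, 0.54, 0.93, 1.73, 3.07 and 0.89 in this order, and over all genes tested 31.9%, 19.5%, 18.0%, 28.4%, 30.6% and 22.8% were lower. Villin (Vil1) stood at 12.8 in enterocytes and 7.20 in tuft cells. The protocadherins that link neighbouring microvilli were high in both: Cdhr2 stood at 17.3 and 16.3 and Cdhr5 at 20.9 and 42.9. Krt18, a keratin of the cytoskeleton below the brush border, stood at 169 in tuft cells and 0.791 in enterocytes. Between zones 1 and 5, 26 of 33 such genes tested outside the zone score were higher and 3 lower in zone 5 (37.0% of all genes were lower), with Cdhr2 up by 2.09 and Slc9a3r1, which binds ezrin, up by 1.75. Calml4 (-0.36), Clic5 (-1.13) and Krt19 (-3.72) were lower.

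Last, the pattern of the 7 genes was compared with that of all genes over 19 sums of epithelial class and library. The likeness is Pearson's r to the mean profile of the 7 genes among 10895 genes, and it is a description, since the sums share libraries and depth. The 10 other genes closest to it were Spint1 (0.967), Arhgef16 (0.966), Clrn3 (0.964), Slc9a3r1 (0.961), Vil1 (0.957), Gsdmd (0.952), Btnl4 (0.95), Slc6a8 (0.948), Rnf128 (0.947) and Optn (0.942). The members themselves ranked from 10 (Myo1a, 0.944) and 15 (Pls1, 0.937) to 846 (Espn, 0.727) and 3468 (Myo6, 0.369). Each member is part of the mean profile, so its r and rank cannot be set against those of other genes. Espn and Myo6 were like each other (0.778), and Pls1 was like Myo1a (0.933). Myo6 was unlike Ezr (-0.03) and Eps8 (-0.19).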

How the data were processed

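Live cells pooled from 3 mice per segment were profiled with the Chromium 3′ kit v3. The deposited values are UMI counts per gene and barcode, made by the authors with Cell Ranger 3.0.2 on GRCm38 (mm10) and neither normalized nor filtered further. The study's filters were applied (800 to 50000 UMIs, 200 to 6000 genes, at most 40% mitochondrial UMIs). The libraries were integrated and clustered with Seurat 5.3.0 in R 4.3.3 (2000 variable genes, 30 principal components, resolution 0.8), with the 7 genes, their relatives and the brush border list kept out. Clusters were named from marker lists. The requirement that, except for enterocytes, at least 2 own markers be among the 10 leading genes was added after the clusters were seen. It left unnamed a cluster of 949 cells, led by Gm26917 and Ctrb1, whose best list was that of early enterocytes (1042 cells kept that name). These cells thus entered neither the early enterocytes nor the zones, and no alternative without this requirement was run. Cell names were rebuilt here and can differ from the study's. No doublet caller was run, and leaving out the 10% of cells with most enterocyte RNA was an alternative.

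Sums of at least 10 cells per library and class, or per zone, were tested with edgeR 4.0.16 (filterByExpr, TMM, quasi-likelihood, library as a block, Benjamini-Hochberg threshold 0.05). The block pairs sums of the same library, hence of the same mice. Alternatives used RLE, library size alone, no gene filter, DESeq2 1.42.0, no block, other cell filters, clusterings and zone scores, and each library left out. Cells were not treated as replicates. The sums come from 3 libraries, each of another segment, so p-values measure how class or zone differences vary from segment to segment. They measure no spread between animals or between replicates of a segment. The fits were tested on simulated data. Intervals cover counting error only. All 7 genes were part of every comparison, though for some only the range or the genes past the threshold are given. Relatives and brush border genes are given by counts, with values for those a result turns on, chosen after their values were seen. Of 38 listed brush border names 37 were found. The 7 genes and all lists were chosen with earlier results of these data known. Positions come from GENCODE M21. Levels were computed in Python 3.11.15 with pandas 2.3.3.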

Additional observations from a re-analysis of the deposited data

Results flagged for a closer look

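Pls1 went in different directions from zone 1 to zone 5 in different segments. The ratio of its level in zone 5 to that in zone 1 was 1.24 in the duodenum and 1.29 in the ileum but 0.787 in the jejunum, each with an interval for counting error that excluded 1. Espn differed between segments in the upper villus, with a ratio of zone 5 to zone 3 of 1.74 (duodenum), 1.10 (jejunum) and 0.791 (ileum). With 1 library per segment, neither difference was tested.

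The barcodes above 40% mitochondrial UMIs, which entered no comparison, also held UMIs of the 7 genes. Their summed level was 21.4 (duodenum), 24.8 (jejunum) and 19.3 (ileum) UMIs per 10000 UMIs, beside 34.6, 41.5 and 53.4 in kept enterocytes.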

How the results depend on the processing

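Of 931 repeated values for single genes and comparisons, 868 kept their direction and their side of the threshold, 40 kept the direction but no longer passed, 7 newly passed and 16 changed sign. With library size alone, the median of all genes stood at -0.68 between zones 5 and 1 and -0.47 between zones 5 and 3, Myo1a was at -0.48 and Myo6 at -0.32 (zones 5 and 1), Myo6 at -0.063 (zones 3 and 1) and -0.25 (zones 5 and 3), Myo6 at -0.76 against EECs and Myo1a at 0.058 between tuft and goblet cells. The members then lower numbered 2 between zones 5 and 1, 3 between zones 5 and 3 (with 2 higher), 2 between tuft and goblet cells and 1 against EECs. Between zones 5 and 1, 5964 instead of 4125 of all genes were then lower. Of all genes, 2125 instead of 3777 were then higher in zone 5 than in zone 1, 916 instead of 2220 were higher and 4504 instead of 2139 lower in zone 5 than in zone 3, 1874 instead of 3338 were higher and 4799 instead of 2997 lower in enterocytes than in tuft cells, 1765 instead of 3657 higher and 6269 instead of 3730 lower than in EECs, 2624 instead of 4328 higher and 6117 instead of 4013 lower than in T cells, 2463 instead of 4264 higher than in ISC/proliferating cells, 1737 instead of 2979 higher than in early enterocytes, and 4363 instead of 2142 higher and 1100 instead of 2095 lower in tuft than in goblet cells.

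Myo6 against EECs also changed sign with RLE (-0.23), DESeq2 (-0.23), at most 20% mitochondrial UMIs (-0.039), sums of at least 3 cells (-0.034), and it ranged from -0.19 without the ileum to 0.25 without the duodenum. Myo6 against goblet cells ranged from -0.049 without the ileum to 0.43 without the duodenum. Among enterocytes only, Pls1 (-0.021) and Myo1a (-0.19) between zones 5 and 1 and Myo6 between zones 3 and 1 (-0.081) changed sign, as did Myo6 between zones 5 and 3 (-0.037) with the share of tip list UMIs as the score. The cause of these changes was not tested.

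Without the replicate block, which pairs sums of one library, 1 gene was higher in zone 3 than in zone 1, 0 in zone 5 than in zone 3 (2 at an unadjusted edgeR p under 0.05) and 1 lower in enterocytes than in tuft cells, 5 instead of 6 were higher in zone 5 than in zone 1 and 4 instead of 5 in enterocytes than in early enterocytes. All genes higher then numbered 605 instead of 2720, 98 instead of 2220 and, between zones 5 and 1, 2507 instead of 3777. In enterocytes 2189 instead of 2979 genes were higher than in early enterocytes, and 2751 instead of 2997 lower than in tuft cells. It changed the call of no member against goblet cells, EECs, ISC/proliferating cells or T cells. When each library was left out, members called ranged from 2 to 4 for zones 5 and 3, from 5 to 6 for zones 5 and 1 and from 4 to 6 against early enterocytes, and those lower than in tuft cells from 1 to 2. The shares of all genes then ranged from 7.05% to 16.1%, 27.1% to 31.9%, 12.6% to 21.1% and 17.1% to 20.9% in this order. Without the jejunum, 782 instead of 2220 genes were higher in zone 5 than in zone 3, 1131 instead of 2720 in zone 3 than in zone 1, and 1617 instead of 2979 in enterocytes than in early enterocytes. Of the 21 segment ratios in enterocytes, 10 reached 1.5, 7 with mitochondrial genes left out. Enterocytes showed 2.43 of the 7 genes after thinning and 6.03 without. With 3 libraries in all, a missed threshold does not show that levels were equal.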
